A study of Mus musculus with 30 samples.

Results

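The erythroid programme examined here consists of 34 genes that red blood cell precursors use. They were listed by name for their known roles, with earlier results of these data known. By role they are 5 globin and globin chaperone genes (Hbb-bs, Hbb-bt, Hba-a1, Hba-a2, Ahsp), 3 heme and mitochondrial iron genes (Alas2, Fech, Slc25a37), 7 membrane skeleton and band 3 genes (Slc4a1, Epb41, Epb42, Sptb, Ank1, Add2, Tmod1), 6 surface and blood group genes (Rhag, Rhd, Kel, Ermap, Icam4, Cldn13), 6 regulators and receptor genes (Klf1, Gata1, Nfe2, Tal1, Epor, Hemgn), 4 genes of late maturation (Trim10, Trim58, Tspan33, Tmcc2) and 3 red cell enzymes (Car1, Car2, Bpgm). Of these, 33 were measured among 14259 genes at postnatal days 1 and 21 (PND1 and PND21), and 16 among 13091 genes at postnatal day 42 (PND42); 14555 genes were measured in all. Ahsp was not analysed here, and no surface gene was analysed at PND42. Also missing at PND42 were Hba-a2, Slc4a1, Epb42, Ank1, Add2, Tmod1, Gata1, Nfe2, Hemgn, Trim10 and Trim58. Each gene measured at that age had a mean of at least 12.07 normalised counts over the PND42 livers.

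The samples were livers of CD-1 mice, an outbred stock, after gestational exposure to cadmium chloride (CdCl2) at 500 ppb, or without it. At PND1 there were 4 exposed and 4 control females, at PND21 3 exposed and 3 control females, and at PND42 4 exposed and 4 control females with 4 exposed and 4 control males. The labels do not give litters, so p-values measure the spread between these livers. Some animal tags share their leading number and letter across ages or sexes, though not within a group, and the labels do not say what it marks. If it marks a dam, comparisons between ages or sexes treated related animals as independent. The first question was whether exposed livers differed from control livers at each age; the female controls of PND21 and PND1 also give the change with age.

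Before and shortly after birth the mouse liver is a site of red cell formation, which then moves to the bone marrow and spleen. Erythroblasts divide, load themselves with globin and heme, build a membrane skeleton anchored to band 3, and finally lose their nucleus; reticulocytes leave for the blood still holding globin mRNA. The transcription factors GATA1, TAL1 and KLF1 switch on many of these genes, and erythropoietin acts through its receptor, Epor. In bulk liver RNA, fewer erythroid cells and less RNA per erythroid cell cannot be told apart.

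The 30 libraries held from 22027514 to 40088312 counted reads. Values are normalised read counts, that is, reads per gene divided by the library's size factor. Days 1 and 21 were scaled together and PND42 on its own, so levels are not set against each other across these tables. Albumin and the other hepatocyte markers were abundant in all libraries (summed level from 1066720 normalised counts upwards). Mitochondrial genes took 4.88 to 18.8% of reads at PND1, 12.1 to 23.4% at PND21 and 5.25 to 35.5% at PND42, where each of the 4 exposed females (22.2 to 35.5%) lay above each of the 4 control females (5.25 to 12.8%).

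At PND1 the adult globins dominated the programme. Per kilobase of exon, control livers averaged 177912 normalised counts for Hba-a1, an alpha globin gene at chr11:32283511-32284465. Hbb-bs, an adult beta globin gene at chr7:103826534-103828096 on the minus strand, averaged 154919. Its neighbour Hbb-bt at chr7:103812524-103813996 averaged 36271 (GRCm38 coordinates, GENCODE gene bounds). The next genes per kilobase were Car2, a carbonic anhydrase, at 5204, Slc4a1, the anion exchanger band 3, at 3096 and Alas2, the erythroid enzyme of the first step of heme synthesis, at 2956. Among the lowest were Add2, the adducin subunit of the membrane skeleton, at 129 and Trim58, a ubiquitin ligase of late erythroblasts, at 76.0. Counts assigned to Hba-a2 averaged only 71.7 ± 13.5, and those assigned to Hba-a1 144464 ± 22665 (SD, n = 4; not adjusted for length). Of the 686 stretches of 125 bases, the read length, in the Hba-a1 transcripts, 402 also occur in Hba-a2, so the division of reads between these copies depends on how the authors' counting treated shared reads and is uncertain. The same holds for the beta pair, where 306 of the 641 stretches of Hbb-bs also occur in Hbb-bt.

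Between PND1 and PND21 the programme fell almost as a whole. In female controls, 32 of the 33 genes measured were lower at PND21 by limma with Benjamini-Hochberg adjustment over all genes, at an adjusted p threshold of 0.05; of all 14233 genes tested, 26.9% were called lower and 52.9% were called in either direction. The median log2 fold change (PND21 over PND1) was -4.71 over the 33 genes and 0.01 over all genes. The values of the PND21 livers lay below all values of the PND1 livers for 32 of them, against 27.9% of all genes. When libraries were instead scaled to their total reads, the all-gene median shifted by about -0.50, the calls over all genes split into 1725 higher and 6587 lower, in place of 3701 higher and 3826 lower, and 33 erythroid genes were called lower.

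**Figure D1:**
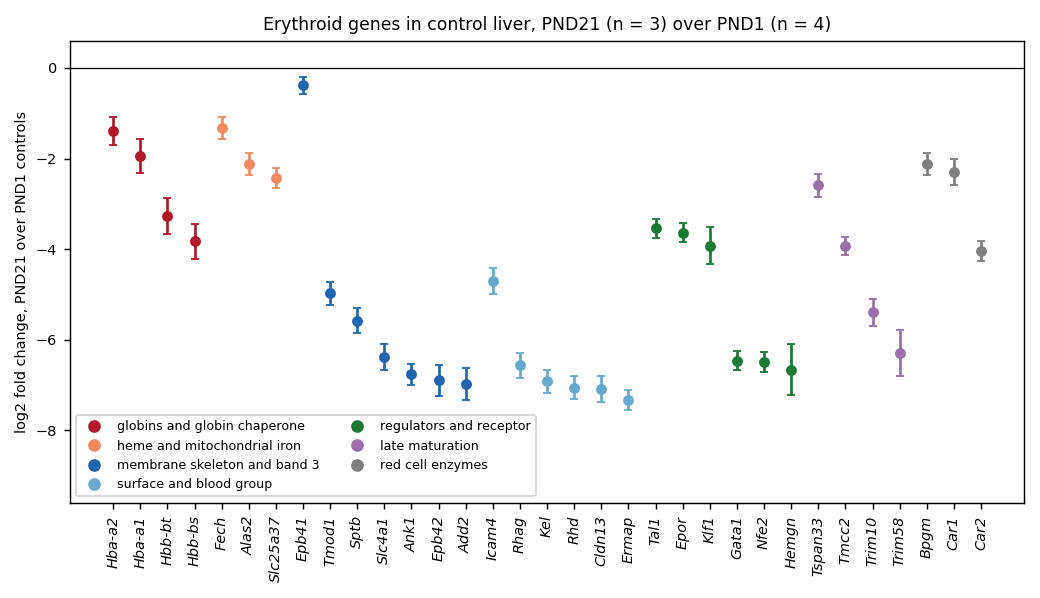
Log2 fold change of each erythroid gene in control female livers, PND21 (n = 3) over PND1 (n = 4); points are limma estimates, bars are standard errors, and colours give the role. All 33 points lie below 0, from -0.39 for Epb41 to -7.33 for Ermap, and the globin, heme and enzyme genes lie mostly nearer to 0 than the surface and membrane genes.

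The surface genes fell most, with all 6 called and a median of -6.99. Ermap, an erythroblast membrane protein of the Scianna blood group, had 19.0, 19.9 and 22.2 normalised counts in PND21 controls, against 4200, 2325, 4065 and 3491 in PND1 controls. Its log2 fold change was -7.33 ± 0.21 (SE; adjusted p = 1.54e-08, limma), a 161-fold lower level. Rhd, a Rhesus protein, had 23.3, 17.3 and 34.6 normalised counts in PND21 controls, against 3840, 2337, 3996 and 3483 in PND1 controls. Kel, the Kell blood group endopeptidase, and Rhag, the ammonia channel that carries the Rhesus complex, fell by 6.92 and 6.57 on the log2 scale. Cldn13, a claudin of mouse erythroid cells, fell by 7.09, and Icam4, the Landsteiner-Wiener adhesion protein, by 4.71. PND21 controls held only 4 to 7 reads of Cldn13, or 5.54 to 9.30 normalised counts, so the size of its fold is uncertain.

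Of the 7 membrane skeleton genes, 6 were called lower, with a median of -6.39 over the 7. Slc4a1 had 143, 209 and 166 normalised counts in PND21 controls, against 19623, 7877, 16088 and 16991 in PND1 controls. Its log2 fold change was -6.39 ± 0.29 (SE; adjusted p = 2.16e-07, limma). Add2 fell by 6.98, Epb42 (protein 4.2) by 6.89, Ank1 (ankyrin, the link between band 3 and spectrin) by 6.76, Sptb (beta spectrin) by 5.58 and Tmod1 (tropomodulin, which caps the short actin filaments of the skeleton) by 4.98. Epb41, protein 4.1, which many cell types use, was the exception, with 4664, 3788 and 4303 normalised counts in PND21 controls against 6276, 4036, 5956 and 6256 in PND1 controls. These ranges overlap, and its log2 fold change of -0.39 ± 0.19 (SE) missed the threshold (adjusted p = 0.115, limma).

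The regulators divided into a deep and a shallow set, a description made after their values were seen. Gata1 had 16.1, 12.0 and 12.5 normalised counts in PND21 controls, against 1305, 1028, 1497 and 1294 in PND1 controls, and fell by 6.47. Nfe2, a subunit of the NF-E2 activator of globin genes, fell by 6.50, and Hemgn, hemogen, a nuclear protein of blood precursors, by 6.67. Klf1 had 137, 38.6 and 97.0 normalised counts in PND21 controls against 1312, 819, 1553 and 1367 in PND1 controls, and fell by 3.92. Epor fell by 3.64 and Tal1, which endothelial cells also use, fell by 3.54. Of the late genes, Trim10, an erythroid RING-finger protein, fell by 5.39, Tmcc2, a transmembrane coiled-coil protein, by 3.93, and Tspan33, a tetraspanin, by 2.59. Trim58 was down to 2, 1 and 0 reads in PND21 controls, too few for a fold, against 109 to 202 normalised counts in PND1 controls.

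By role, the globins, heme genes and enzymes had the smallest median falls, 2.61, 2.12 and 2.30 on the log2 scale. Hbb-bs had 7579, 15941 and 4543 normalised counts in PND21 controls, against 153474, 84740, 107556 and 130143 in PND1 controls, a log2 fold change of -3.83 ± 0.39 (SE; adjusted p = 2.86e-05, limma). Hba-a1 had 43383, 62523 and 19037 normalised counts in PND21 controls, against 156425, 110963, 150562 and 159907 in PND1 controls, and fell by 1.94 ± 0.38 (SE; adjusted p = 0.00161). Hbb-bt fell by 3.27 and Hba-a2 by 1.39. Alas2 had 1258, 1542 and 2097 normalised counts in PND21 controls against 8748, 4713, 7296 and 7652 in PND1 controls, and fell by 2.12. Slc25a37, mitoferrin, which imports iron into mitochondria, fell by 2.42, and Fech, ferrochelatase, which inserts iron into protoporphyrin in every heme-making cell, by 1.33. Car2 fell by 4.05, Car1, the other red cell carbonic anhydrase, by 2.30, and Bpgm, which makes the oxygen affinity regulator 2,3-bisphosphoglycerate, by 2.12.

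The gap between globins and membrane genes was therefore wider at PND21. For these gaps the globins were Hbb-bs, Hbb-bt and Hba-a1, without Hba-a2. The mean log2 level per kilobase of the globins minus that of the membrane genes was 10.6, 11.4 and 9.67 in PND21 controls, against 8.14, 8.29, 7.94 and 8.14 in PND1 controls. Against the regulators the globins stood higher by 9.43, 10.7 and 8.58 in PND21 controls, compared with 7.64, 7.53, 7.17 and 7.45 in PND1 controls. Against the heme genes the gap went the other way, at 5.26, 6.09 and 4.19 in PND21 controls and 6.27, 6.39, 6.07 and 6.22 in PND1 controls, with PND21 replicate 2 just inside the PND1 range. These gaps are given as a description with no test. Hba-a1 counts over the summed counts of both beta genes, not adjusted for length, were 4.57, 2.90 and 3.09 in PND21 controls, all above the 0.842, 1.08, 1.14 and 1.02 of PND1 controls.

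Other genes of the pathway moved the same way. Of 20 other erythroid genes measured, all 20 were called lower at PND21, among them the regulator gene Gfi1b (-7.27) and the transferrin receptor gene Tfrc (-2.45). Of 9 other heme synthesis genes, 4 were called lower and Alas1, the form of the first enzyme used by hepatocytes, was called higher. Alas1 had 41245, 23654 and 36035 normalised counts in PND21 controls, against 1112, 907, 981 and 947 in PND1 controls, and its log2 fold change was 5.06. Each PND21 control had between 0.0305 and 0.0652 Alas2 counts per Alas1 count, not adjusted for length, compared with between 5.20 and 8.08 in each PND1 control. Embryonic globins were not analysed here.

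Markers of other blood cells fell over the same interval. Called lower were 8 of 8 neutrophil and myeloid precursor markers, whose sum was 292 to 440 normalised counts in PND21 controls and 40880 to 48576 in PND1 controls. So were 8 of 8 megakaryocyte markers (486 to 734, against 9117 to 12033), 6 of 6 B cell markers (110 to 150, against 1525 to 2012) and 8 of 8 cell cycle genes (756 to 1839, against 13486 to 25446). Of 7 hepatocyte markers, 4 were called higher and 0 lower, with sums of 2203330 to 4690200 in PND21 controls and 1215620 to 2119310 in PND1 controls. In the B cell list, Igll1 was at 0 in PND21 control replicates 2 and 3. The part of these lists in the erythroid values was not tested.

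Because these genes fell together, the bases before their starts were searched for binding motifs of erythroid factors. RefSeq promoters (GRCm38.p6) were at hand for 25 of the 34 genes, and 250 bases before each start were read. The GATA motif AGATAA, or TTATCT on the other strand, occurred in 10 of the 25 (40%) and in 11.4% of 27025 genes. The 10 were Alas2, Epb42, Epor, Hbb-bs, Icam4, Kel, Rhd, Tal1, Tmcc2 and Trim10. The CACCC motif CCACACCC or GGGTGTGG, the kind KLF1 binds, occurred in 1 (Hbb-bs, 4% against 3.68% of all genes), the NF-E2 motif TGAGTCA or TGACTCA in 2 (Kel and Trim10, 8% against 5.16%), and TATAAA or TTTATA in 5 (20% against 14.3%). No pair of these motifs shares its letters in full, and a match is a description, not a shown binding site. The 150 bases before the start are shown for both beta globin genes, which differ in these motifs, and for an enzyme, a receptor, a Rhesus gene and a Kell gene that hold the GATA motif; matches lying in these 150 bases are in capitals, written 5′ to 3′ on the gene's strand.
Hbb-bs (chr7:103827929-103828078, minus strand, CCACACCC in capitals): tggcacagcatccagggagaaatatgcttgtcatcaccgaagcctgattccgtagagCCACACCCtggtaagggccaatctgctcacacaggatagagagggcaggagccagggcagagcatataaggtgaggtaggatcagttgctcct
Hbb-bt (chr7:103813924-103814073, minus strand, TATAAA in capitals): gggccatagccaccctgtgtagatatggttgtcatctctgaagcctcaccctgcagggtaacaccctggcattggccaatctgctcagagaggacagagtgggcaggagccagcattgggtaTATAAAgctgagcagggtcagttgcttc
Alas2 (chrX:150547267-150547416, plus strand, TTATCT in capitals): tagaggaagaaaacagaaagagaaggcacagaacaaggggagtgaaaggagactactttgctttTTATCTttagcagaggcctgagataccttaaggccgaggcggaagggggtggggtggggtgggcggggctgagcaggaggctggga
Epor (chr9:21963577-21963726, minus strand, TTATCT in capitals): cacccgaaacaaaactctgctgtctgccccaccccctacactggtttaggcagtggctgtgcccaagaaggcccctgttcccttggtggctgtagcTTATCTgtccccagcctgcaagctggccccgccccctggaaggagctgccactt
Rhd (chr4:134864386-134864535, plus strand, AGATAA in capitals): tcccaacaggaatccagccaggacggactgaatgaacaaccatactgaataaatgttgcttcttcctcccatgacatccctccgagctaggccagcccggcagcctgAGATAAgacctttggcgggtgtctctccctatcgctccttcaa
Kel (chr6:41704326-41704475, minus strand, AGATAA in capitals): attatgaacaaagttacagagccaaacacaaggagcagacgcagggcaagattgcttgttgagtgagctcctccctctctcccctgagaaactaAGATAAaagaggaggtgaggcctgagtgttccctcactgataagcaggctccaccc

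At PND1, exposed livers had a higher mean log2 level than control livers for 32 of the 33 erythroid genes, but none passed the test. The median log2 fold change was 0.37, compared with -0.01 over all genes, of which 49.2% had a higher mean. By limma, 0 of 33 erythroid genes and 0 of 14059 genes (0%) were called; at an unadjusted p under 0.05 there were 1 erythroid gene, Kel, and 2039 genes (14.5%). The erythroid count rests on single livers and on scaling. Without exposed replicate 3 it was 21 of 33, against 1796 of 14083 genes. It was 6 of 33 when libraries were scaled to total reads, against 1746 of 14059 genes. When globin and mitochondrial reads were left out of that scaling it was 10 of 33, against 2107 of 14059 genes. In each, 0 erythroid genes were called after adjustment. Values of exposed and control livers overlapped for all 33; of all genes, 2.94% lay wholly above and 4.82% wholly below the controls. The authors' deposited table likewise gave 0 erythroid genes an adjusted p under 0.05 at this age, with a lowest value of 0.146, and 72 genes in all.

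Kel had 8269, 5406, 3519 and 6765 normalised counts in exposed livers, against 3631, 2617, 4145 and 3254 in control livers. In 3 of the 4 exposed livers it lay above every control, and exposed replicate 3 fell among the controls. The log2 fold change was 0.76 ± 0.25 (SE; adjusted p = 0.267, limma). Ank1 had 6952, 5017, 2909 and 5372 normalised counts in exposed livers, against 4046, 2481, 3705 and 3280 in control livers (0.54 ± 0.25, SE; adjusted p = 0.355). Rhd had 5954, 4717, 3111 and 5321 in exposed livers, against 3840, 2337, 3996 and 3483 in control livers (0.47 ± 0.23, SE; adjusted p = 0.362). The same 3 exposed livers were high for both genes.

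Hba-a1 had 253143, 201647, 109663 and 237984 normalised counts in exposed livers, against 156425, 110963, 150562 and 159907 in control livers. Its log2 fold change was 0.42 ± 0.27 (SE; adjusted p = 0.478). Hbb-bt had 65761, 43661, 17753 and 53888 normalised counts in exposed livers, against 32234, 17957, 24671 and 27133 in control livers, with 0.71 ± 0.37 (SE; adjusted p = 0.402). Hbb-bs, next to it, had a smaller estimate, 0.17 ± 0.24 (SE; adjusted p = 0.771). Hbb-bt made up 28.3, 25.6, 16.1 and 26.8% of beta globin counts in exposed livers, against 17.4, 17.5, 18.7 and 17.3% in control livers. Exposed replicate 3 lay below the controls in this share and the other three exposed livers above them; the share was not tested. Globin counts took 2.37, 1.57, 1.02 and 1.91% of all reads in exposed livers and 1.37, 1.03, 1.19 and 1.39% in control livers.

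**Figure D2:**
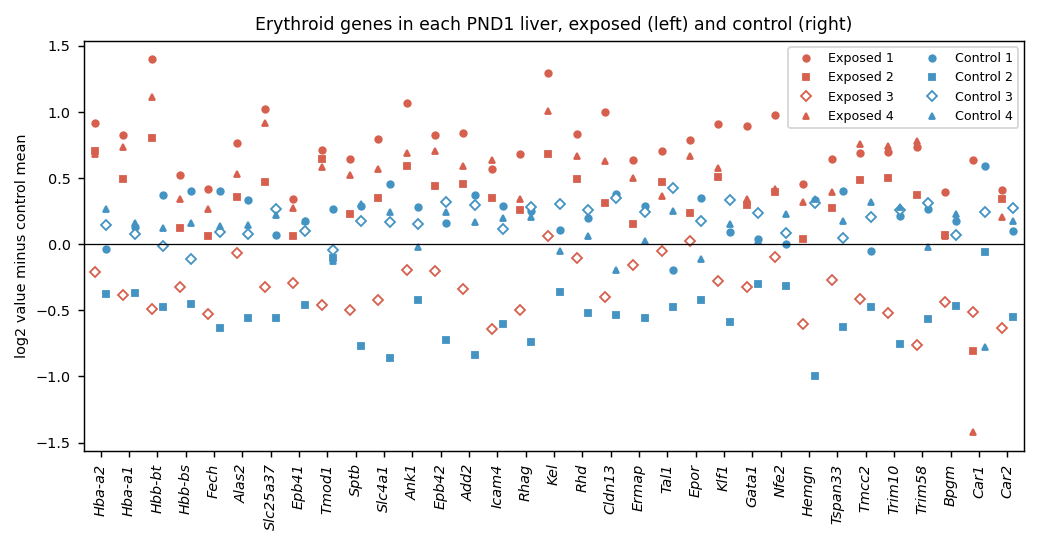
Log2 value of each erythroid gene in each PND1 female liver minus the control mean; red symbols are the 4 exposed livers, blue symbols the 4 control livers, and each shape is 1 replicate number. Exposed replicate 3 (open red diamonds) and control replicate 2 (blue squares) lie low across nearly all genes, and exposed and control values overlap for each gene.

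Single livers were low or high across most genes at PND1. Control replicate 2 was the lowest control for 31 of the 33 genes, exposed replicate 3 the lowest exposed liver for 32, and exposed replicate 1 the highest exposed liver for 29. Alas2 had 11799, 8872, 6618 and 10016 normalised counts in exposed livers, against 8748, 4713, 7296 and 7652 in control livers, and shows this order. Car1 alone had a lower mean in exposed livers, with 1564, 575, 703 and 375 normalised counts against 1518, 963, 1190 and 586 in control livers (-0.53 ± 0.44, SE; adjusted p = 0.595). The membrane genes had positive differences for 7 of 7 (median 0.37), the regulators for 6 of 6 (median 0.40), the heme genes for 3 of 3 (median 0.40), the late genes for 4 of 4 (median 0.32) and the enzymes for 2 of 3 (median 0.02).

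Cell cycle genes followed the same livers: their sum was 29513, 25321, 15753 and 27523 normalised counts in exposed livers, against 25446, 13486, 24173 and 22028 in control livers, with exposed replicate 3 and control replicate 2 lowest. Megakaryocyte markers went the other way, with a lower mean in exposed livers for 8 of 8 (median -0.40), though their sum of 12443 in exposed replicate 3 was the highest of the 8 livers. Hepatocyte markers had a higher mean in exposed livers for 1 of 7. None of these markers was called, and their part in the erythroid values was not tested. Without both of the livers that were lowest, a choice made after their values were seen, 0 erythroid genes were called and 31 of 33 had a higher mean in exposed livers. The median of the 33 genes was 0.57 without exposed replicate 3 and 0.20 without control replicate 2. With control replicate 2 alone left out, 25 of 33 had a higher mean in exposed livers, and without exposed replicate 1 it was 28 of 33. Of 29 other erythroid and heme genes, 21 had a higher mean in exposed livers and 0 were called.

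At PND21 no erythroid gene passed the test in exposed against control livers; most surface and membrane genes had positive estimates and the heme genes negative ones. By limma, 0 of 31 genes were called, against 5 of 13886 genes (0.036%); Cldn13 and Trim58 were under the filter on low values. At an unadjusted p under 0.05 there were 5 erythroid genes and 1329 genes in all (9.57%). A higher mean in exposed livers was seen for 19 of 31 genes, with a median of 0.17 (48.9% of all genes, median -0.01). When libraries were scaled to their total reads, the all-gene median shifted by about 0.23 and 23 of 31 had a higher mean. The direction of the list turned with a filter at 50 counts, which left 17 genes, 7 of them with a higher mean (median -0.22), and without exposed replicate 3, with 14 of 31 (median -0.05). Non-overlapping values were higher in exposed livers for 3 of 31 genes, Add2, Ermap and Nfe2, near the 7.99% of all genes. They were lower for 1 of 31, Alas2, against 8.62% of all genes. Add2 reached 10 normalised counts in too few controls to pass the filter without its exposed values. Its separation is therefore not independent of the filter. Epb42 (5.84 to 13.9 normalised counts in controls, 13.7 to 50.3 in exposed livers) also needed its exposed values to pass. Without the filter, 21 of 33 genes had a higher mean, with a median of 0.19.

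Alas2 had 871, 622 and 959 normalised counts in exposed livers, against 1258, 1542 and 2097 in control livers. All 3 exposed livers lay below all 3 controls. The log2 fold change was -0.99 ± 0.24 (SE), with an adjusted p of 0.389 by limma. The authors' deposited table gave it a log2 fold change of -0.999 and an adjusted p of 0.0180. Fech and Slc25a37 also had negative estimates, -0.38 ± 0.22 and -0.24 ± 0.21 (SE), with overlapping values.

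Nfe2 had 36.9, 34.6 and 87.4 normalised counts in exposed livers, against 23.3, 13.3 and 18.0 in control livers. Exposed replicate 3 was far above the other two. Its log2 fold change was 1.39 ± 0.48 (SE; adjusted p = 0.456, limma), and the authors' deposited table gave 1.53 with an adjusted p of 0.0132. Kel had 33.7, 76.7 and 95.7 normalised counts in exposed livers, against 17.5, 29.2 and 37.4 in control livers (1.20 ± 0.48, SE; adjusted p = 0.496), and Ermap had 24.2, 55.2 and 68.2 against 19.0, 19.9 and 22.2 (1.11 ± 0.46, SE; adjusted p = 0.507). For Kel and Ermap the authors' deposited table gave adjusted p-values of 0.0465 and 0.0431. That table thus held 4 erythroid genes under 0.05 at PND21, 3 higher and 1 lower in exposed livers, among 446 genes in all. Limma on the 3 exposed and 3 control livers of this age called 0 of them. The livers behind the authors' test are not known here, and their mean signal covered all 14 PND1 and PND21 livers. Limma over those 14 livers called 0 erythroid genes and 50 of 14259 genes. Add2 had 16.9, 22.4 and 25.1 normalised counts in exposed livers, against 13.1, 5.32 and 9.70 in control livers (1.17 ± 0.52, SE; adjusted p = 0.516).

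**Figure D3:**
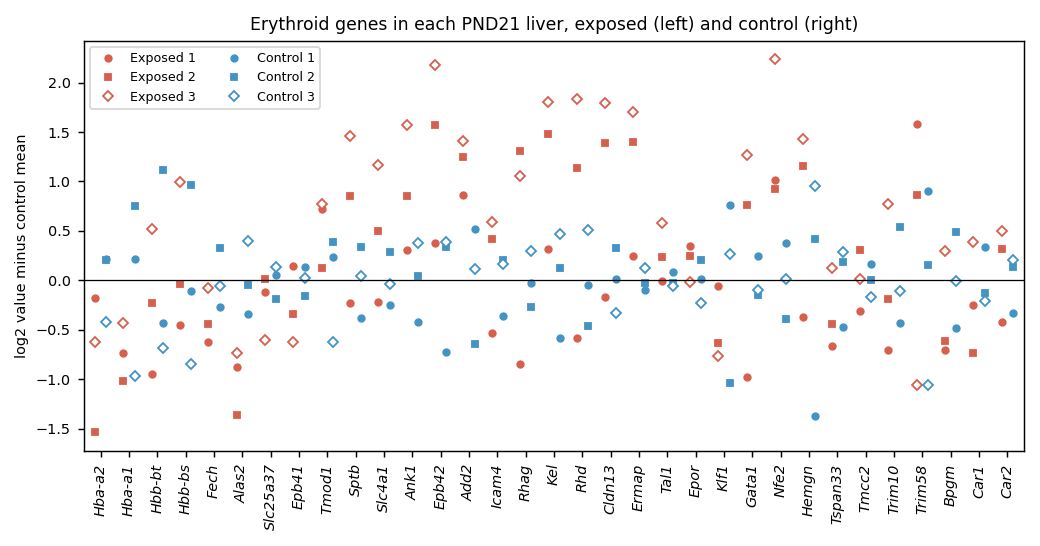
Log2 value of each erythroid gene in each PND21 female liver minus the control mean; red symbols are the 3 exposed livers, blue symbols the 3 control livers. Exposed replicate 3 (open red diamonds) is highest for most membrane and surface genes, Alas2 lies lower in all 3 exposed livers, and Trim58 rests on very few reads.

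Exposed replicate 3 was the highest exposed liver for 25 of the 33 genes and exposed replicate 1 the lowest for 22. The membrane genes had positive estimates for 6 of 7 (median 0.69), the surface genes for 5 of 5 (median 0.80), the regulators for 5 of 6 (median 0.31), the globins for 1 of 4 (median -0.47), the enzymes for 1 of 3 (median -0.20) and the heme genes for 0 of 3 (median -0.38). The membrane count and median include Add2 and Epb42, which passed the filter only with their exposed values. Slc4a1 had 146.5, 242 and 385 normalised counts in exposed livers, against 143, 209 and 166 in control livers (0.49 ± 0.35, SE; adjusted p = 0.631). Hba-a1 had 22341, 18344 and 27525 normalised counts in exposed livers, against 43383, 62523 and 19037 in control livers (-0.73 ± 0.42, SE; adjusted p = 0.574), and control replicate 3 lay inside the exposed range. Globins (without Hba-a2) minus membrane genes, per kilobase on the log2 scale, were 9.55, 9.43 and 9.77 in exposed livers, against 10.6, 11.4 and 9.67 in control livers, which overlap. At PND1 the same gap was 8.30, 8.21, 8.07 and 8.29 in exposed livers, against 8.14, 8.29, 7.94 and 8.14 in control livers.

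The cell cycle sum at PND21 was 1017, 2942 and 4093 normalised counts in exposed livers, against 1468, 756 and 1839 in control livers, and exposed replicate 3 was highest; 8 of 8 of its genes had a higher mean in exposed livers. Hepatocyte markers had a higher mean in exposed livers for 0 of 7 (median -0.59), and B cell markers for 4 of 4. None was called, and their part in the erythroid values was not tested. Alas1 had 29589, 16833 and 1038 normalised counts in exposed livers, against 41245, 23654 and 36035 in control livers; exposed replicate 3 stood far below the rest, and the difference was not called (-2.03 ± 1.29, SE; adjusted p = 0.618). Of 28 other erythroid and heme genes, 11 had a higher mean in exposed livers and 0 were called.

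The exposure effects at PND21 and PND1 were compared directly by an interaction term over the 14 livers. Of the 33 erythroid genes 0 were called, against 0.014% of all genes (2 of 14259); 4 had an unadjusted p under 0.05, against 9.07% of all genes. The largest difference for a heme gene was that of Alas2, whose effect at PND21 minus that at PND1 was -1.39 ± 0.35 (SE; adjusted p = 0.282): the estimates were -0.99 at PND21 and 0.40 at PND1. For Nfe2 the effects were 1.39 at PND21 and 0.42 at PND1, a difference of 0.97 ± 0.44 (SE; adjusted p = 0.533). A difference between the ages was therefore not shown for any single erythroid gene.

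At PND42 females, the group with the most calls between exposed and control livers over all genes, 1 of 16 erythroid genes was called higher and 2 were called lower in exposed livers. These 16 leave out every surface gene, most membrane genes and Gata1. The calls therefore do not speak for the programme as a whole. Over all 13091 genes 40.2% were called, 18.9% higher and 21.4% lower, so the erythroid share is below that of all genes. Slc25a37 rose, and Car2 and Bpgm fell. These 3 were also the genes with non-overlapping values, Slc25a37 above (22.3% of all genes) and Car2 and Bpgm below (23.5%). Scaling without globin and mitochondrial reads shifted the all-gene median by about 0.39 and turned the split over all genes to 4251 higher and 1470 lower, in place of 2468 higher and 2801 lower. The 3 calls held under each scaling and with each replicate left out. The exposed females also differed from the control females in signs of RNA composition: besides the mitochondrial share, the mean log2 level of the nuclear RNAs Malat1 and Neat1 lay between 15.51 and 15.91 in exposed females, against 13.04 to 14.46 in control females, with no overlap. The part of these in the 3 calls was not tested.

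Slc25a37 had 2577, 2754, 3316 and 3508 normalised counts in exposed females, against 1728, 1657, 1922 and 2274 in control females. The lowest exposed liver lay above the highest control. Its log2 fold change was 0.68 ± 0.21 (SE; adjusted p = 0.0159, limma). Car2 had 138, 165, 71.2 and 184 normalised counts in exposed females, against 417, 321, 353 and 326 in control females, with a log2 fold change of -1.41 ± 0.30 (SE; adjusted p = 0.00141). Bpgm had 87.6, 118, 81.3 and 147.3 normalised counts in exposed females, against 240.5, 301, 301 and 244 in control females (-1.35 ± 0.25, SE; adjusted p = 0.000579). For both enzymes the highest exposed liver lay well below the lowest control. Of the control values, the last in each list comes from a column named as a control female in the PND42 table, whose animal tag matches no PND42 sample and equals that of PND21 control replicate 1, so its animal and age are in doubt. Without it, 1 erythroid gene was called higher and 2 lower, as with it.

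The beta globins had lower means in exposed females without passing the test. Hbb-bs had 1104, 620, 503 and 2423 normalised counts in exposed females, against 1661, 2941, 2008 and 4183 in control females (-1.40 ± 0.62, SE; adjusted p = 0.0875), and exposed replicate 4 lay inside the control range. Hbb-bt gave -1.02 ± 0.47 (SE; adjusted p = 0.0952). Hba-a1 had an estimate near 0, with 2051, 2330, 1924 and 4848 normalised counts in exposed females against 2985, 1690, 3183 and 2183 in control females (0.09 ± 0.41, SE; adjusted p = 0.885). The ratio of Hba-a1 to both beta genes was 1.60, 2.70, 2.90 and 1.61 in exposed females, against 1.40, 0.509, 1.28 and 0.439 in control females. All 4 exposed ratios lay above all 4 control ratios, as did the values of 22.3% of all genes. The ratio was not tested. Alas2 had close group means, with 314, 533, 1096 and 483 normalised counts in exposed females against 535, 677, 574 and 632 in control females (-0.14 ± 0.65, SE; adjusted p = 0.881).

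Of the regulators analysed at this age, Tal1 had 81.4 to 100.1 normalised counts in exposed females, against 52.8 to 95.5 in control females, and Epor 65.5 to 105 in the exposed against 59.6 to 157.3 in the control females. Klf1 had 29.5 to 137 normalised counts in exposed females and 12.3 to 66.0 in control females, while the membrane gene Sptb ranged over 19.4 to 50.4 in the exposed group and over 11.3 to 60.9 in the control group; neither was called, nor were Tal1, Epor, Tmcc2, Tspan33, Epb41, Fech and Car1. Of 23 other erythroid and heme genes in exposed females, 4 were called higher and 8 lower, among them Tmem14c, a mitochondrial porphyrin transporter (-1.62), and the water channel gene Aqp1 (-2.09). Hepatocyte markers were called lower for 6 of 7, with sums of 1236960 to 2276260 normalised counts in exposed females and 2911590 to 4003150 in control females, and macrophage markers for 4 of 8. Called higher were 2 of 4 progenitor markers, with sums of 682 to 912 in exposed and 360 to 401 in control females. So was 1 of 3 megakaryocyte markers. Of the B cell, cell cycle and neutrophil markers, 0 were called. The part of these markers in the erythroid values was not tested.

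**Figure D4:**
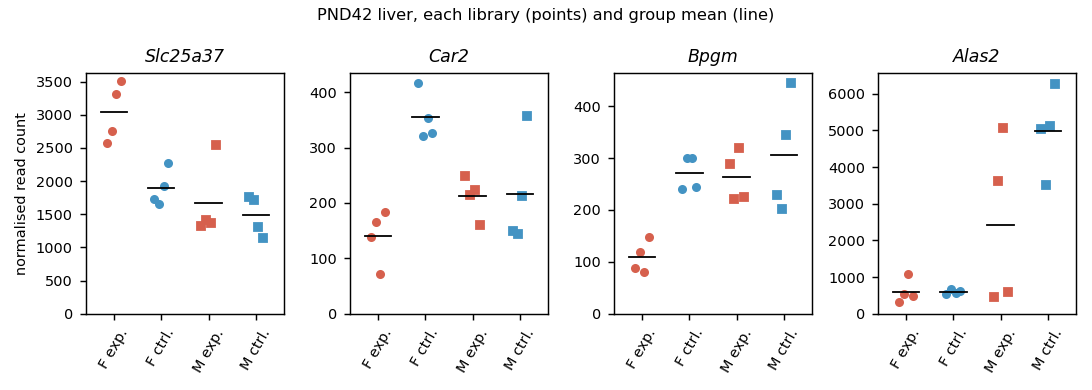
Normalised read counts of Slc25a37, Car2, Bpgm and Alas2 in each PND42 liver (points) with group means (lines); F is female, M male, exposed (exp., red) left of control (ctrl., blue). Slc25a37 lies higher and Car2 and Bpgm lower in all 4 exposed females than in all 4 control females, and Alas2 is spread from 450 to 5065 in exposed males.

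At PND42 in males, 0 of 16 erythroid genes were called, as were 0 of 13091 genes (0%). At an unadjusted p under 0.05 there were 1 erythroid gene, Alas2, and 932 genes (7.12%). Alas2 had 450, 3623, 5065 and 596 normalised counts in exposed males, against 5036, 3510, 5119 and 6264 in control males. Exposed replicates 1 and 4 lay far below every control male, near the female values, and exposed replicates 2 and 3 lay within the control range. The log2 fold change was -1.71 ± 0.65 (SE; adjusted p = 0.622, limma). Xist and the Y-linked genes Ddx3y, Eif2s3y, Kdm5d and Uty separated all 8 males from all 8 females as labelled, with 3018 to 4279 Ddx3y counts in males and 0 to 2.36 in females. Of the control male values, the last 3 in each list come from columns with no replicate number. Car2 had 248, 215, 223 and 160 normalised counts in exposed males, against 148.7, 144.7, 213 and 356 in control males (0.06 ± 0.30, SE; adjusted p = 0.953). Bpgm had 289, 220, 319 and 224 in exposed males, against 229, 202, 344 and 445 in control males (-0.16 ± 0.25, SE; adjusted p = 0.824).

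The exposure effect in males minus that in females was tested by an interaction term over the 16 livers. Car2, with a difference of 1.47 ± 0.42 (SE; adjusted p = 0.0418), and Bpgm, with 1.19 ± 0.36 (SE; adjusted p = 0.0492), were called among 16 genes; 4.07% of all genes were called in this direction and 7.91% in either. The underlying effects were 0.06 in males and -1.41 in females for Car2, and -0.16 in males and -1.35 in females for Bpgm. Both calls lay near the threshold: with scaling without globin and mitochondrial reads neither was called. With 1 liver left out in turn, Bpgm stayed called in 3 of 16 fits and Car2 in 3 of 16, with adjusted p-values up to 0.106 and 0.0866. For Slc25a37 the difference was -0.55 ± 0.30 (SE; adjusted p = 0.265).

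Because of the Alas2 values, control males were set against control females, a comparison chosen after these values were seen. Alas2, on the X chromosome at chrX:150547375-150570638, had 5036, 3510, 5119 and 6264 normalised counts in control males, against 535, 677, 574 and 632 in control females. The lowest male was over the highest female, as for 6.75% of all genes, and the log2 fold change was 3.02 ± 0.65 (SE; adjusted p = 0.0143, limma), 8.09-fold higher in males. Car1 had 471, 430, 706 and 473 normalised counts in control males, against 274, 168, 259 and 150 in control females (1.30 ± 0.28, SE; adjusted p = 0.00906). These were 2 of 16 erythroid genes called higher and 0 lower, against 4.58% of all genes called higher and 2.35% lower. When libraries were scaled to their total reads, the all-gene median shifted by -0.38, the same direction held for both, and 2 erythroid genes were called lower; the split over all genes was then 235 higher and 1875 lower, in place of 600 and 307. Hba-a1 had 4096, 2509, 10102 and 9837 normalised counts in control males, against 2985, 1690, 3183 and 2183 in control females (1.22 ± 0.41, SE; adjusted p = 0.0822).

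**Figure D5:**
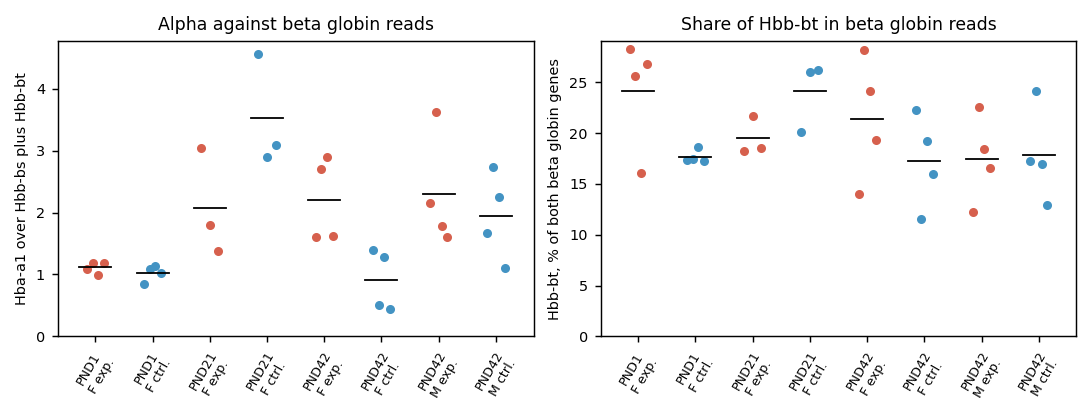
Ratio of Hba-a1 counts to the sum of Hbb-bs and Hbb-bt (left) and share of Hbb-bt in both beta globin genes in percent (right) in each liver, by age and sex, exposed (exp., red) left of control (ctrl., blue); points are livers, lines are group means. At PND1 3 of the 4 exposed livers lie above 25% for Hbb-bt and all 4 controls between 17.3 and 18.7%, and the ratio is highest in PND21 controls, at 2.90 to 4.57.

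Ratios of globin counts within a library do not depend on its size factor, so they are given for all ages. Alpha over beta was 1.09, 1.18, 0.993 and 1.18 in exposed livers at PND1, against 0.842, 1.08, 1.14 and 1.02 in control livers. At PND21 it was 3.05, 1.80 and 1.38 in exposed livers, against 4.57, 2.90 and 3.09 in control livers, an overlap of 1 exposed value. In PND42 males it was 2.16, 3.63, 1.78 and 1.61 in exposed livers, against 1.67, 2.74, 2.26 and 1.11 in control livers; the ranges overlap in part, with exposed replicate 2 above every control and 1 control below every exposed male. Only at PND42 in females did the ratios of exposed and control livers separate. In that comparison 22.3% of all genes also lay wholly above the controls and 23.5% wholly below. These ratios also depend on how reads shared between gene copies were counted.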

How the data were processed

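Single-end 125-base RNA-seq of mouse liver was deposited as tables of log2 values; per the submitters' processing notes FastQC, STAR, featureCounts and mm10 were used; their versions are not given here. The deposited log2 values equal log2 of the read count over a size factor plus 1, and 100% of values gave whole reads within 0.1. The authors' tables also hold log2 fold changes with p-values, used only where named, and a test score and a mean signal per gene as deposited, not used for results. 4 PND42 control columns carry no replicate number. Fits used limma 3.58.1 (R 4.3.3; trend, robust, two-sided) on the deposited log2 values of genes with at least 10 normalised counts in as many libraries as the smaller group, with Benjamini-Hochberg adjustment over all genes; both PND42 sexes shared 1 fit. A fold change is on the log2(value + 1) scale and understates changes of low genes. The scripts were tested on simulated data. Members and lists were chosen with earlier results of these data known; the gene-naming rule took the highest gene of each role, the 3 lowest p-values per exposure comparison, and calls. Alternatives were other scalings, voom, filters, pseudocounts, a fit over all libraries, no trend, a replicate block, and leaving out each library. Figures were drawn with matplotlib 3.10.9.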

Additional observations from a re-analysis of the deposited data

Results flagged for a closer look

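Of 60 groups of 4 values examined, 4 held a liver far from the other three, about what chance gives at 1 in 20. These were Hba-a1 (110963 normalised counts) and Trim10 (1065) in PND1 control replicate 2, Slc25a37 in PND42 exposed male replicate 4 (2542), and Tmcc2 in 1 unnumbered PND42 control male (78.1). The exposure effect at PND42 differed between the sexes by the interaction test for Bpgm, by 1.19 (males minus females, adjusted p = 0.0492, limma), and for Car2, by 1.47 (adjusted p = 0.0418).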

How the results depend on the processing

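For the counts of erythroid genes called, most alternatives kept the reported value within 1.5 times (260 of 282). Many of these were counts of 0 that stayed 0. For the sex interaction, the count called higher moved in 14 fits with 1 liver left out and stayed in 2. No gene followed through the alternatives changed sign. Medians over the erythroid genes did: in exposed against control livers the PND21 median of 0.17 became -0.22 with a filter at 50 counts and -0.05 without exposed replicate 3, the PND42 female median of 0.08 became -0.08 to -0.01 without exposed replicate 4 or any of 3 controls, and the PND42 male median of -0.13 became 0.05 with scaling without globin and mitochondrial reads and 0.03 without either of 2 unnumbered controls. In exposed against control females at PND42, scaling without globin and mitochondrial reads gave 2 genes called higher in place of 1, and leaving out 1 liver gave 2 to 4 called lower in place of 2, with 4 when exposed replicate 4 was left out. For the male minus female exposure effect, the 2 genes called higher became 0 with that scaling, 1 with a pseudocount of 8, 0 without trend, and 0 to 2 when 1 liver was left out. For control males against control females, 0 called lower became 2 with total reads, 1 with the scaling without globin and mitochondrial reads, and 0 to 1 when 1 liver was left out; Hba-a1 was called there without 1 unnumbered control male (1.61, adjusted p = 0.0098, limma). Over all genes at PND21, the 5 calls became 50 in a fit of all 14 PND1 and PND21 livers, 2 with voom, 2 without trend, 3 with a filter at 50 counts, 8 with the replicate block and 0 to 14 when 1 liver was left out. At PND1 the 0 calls over all genes became 1 to 5 without exposed replicate 4 or 3, and 7 without both low livers. For the age interaction the 2 calls over all genes became 4 with each scaling, 4 without trend, 0 with voom and up to 12 with a liver left out; in males 27 without 1 control male. Over all genes, control males against females gave 907 calls, and 2110 with total reads, 392 from control livers only, and 371 to 1979 with a liver left out; the sex interaction gave 1036, and 492 to 1929 with a liver left out. Same-numbered exposed and control livers had correlations of -0.07, 0.10, -0.06 and 0.12 at PND1. They were 0.23, -0.04 and 0.10 at PND21, and 0.07, -0.08 and 0.05 in PND42 females. The 0.23, for replicate 1 at PND21, was the highest of all pairs compared. Signs were mixed within each age, and the numbers are not taken as pairs. With the replicate block the erythroid calls were 0 at PND1, 0 at PND21, and 1 higher and 2 lower in PND42 females. For PND42 males no replicate block was possible, because exposed and control males share fewer than 2 numbers. Depth limits the lowest genes at PND21: control livers held 4 to 9 reads of Add2, 4 to 7 of Cldn13, 4 to 10 of Epb42 and 9 to 11 of Gata1.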
